A study of Mus musculus with 18 samples.

Results

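The MHC class II genes are the 10 genes whose products build, load and switch on the cell surface molecules that show peptides to CD4+ T cells: *H2-Aa*, *H2-Ab1*, *H2-Eb1*, *H2-DMa*, *H2-DMb1*, *H2-DMb2*, *H2-Oa*, *H2-Ob*, *Cd74* and *Ciita*. They were found by the gene name printed beside each probe of the array, and each gene was read at its brightest probe. All 10 had at least 1 probe among the 37074 gene names of the array, with 19 probes between them. Of these, 9 genes and 14 probes passed a filter on dim signals that 21542 gene names passed in all. The gene left out was *H2-DMb2*, whose only probe was well above background on 3 of 6 arrays from mice on chow and on 0 of 12 arrays from mice on a high-fat diet (HFD), so no fold change is given for it.

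Each of 18 arrays held RNA from the ileum cells of 1 mouse, and the labels form 3 groups of 6. The first group was iPGC1afl/fl on chow, the second iPGC1afl/fl on HFD and the third iPGC1a-/- on HFD. All mice were male, on a C57BL6/J background, and carried floxed alleles of *Ppargc1a*, the gene for the coactivator Pgc1α. In iPGC1a-/- mice these were cut by Cre under the promoter of *Vil1*, which is active in intestinal epithelium, so that other cells of the gut wall are not targeted. Controls were floxed littermates without Cre. Diets began at 8 weeks of age and lasted 8 weeks, HFD supplied 42% of kcal from fat with 0.2% cholesterol, and mice were killed at ZT 3. Arrays of iPGC1a-/- mice on chow were not analysed here. Cells came off the ileum in a chelating buffer and were not sorted, so the preparation can hold lymphocytes and other cells beside the epithelium. In such bulk samples, fewer cells of a type and less RNA per cell cannot be told apart.

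Class II molecules are pairs of an α and a β chain. The invariant chain, Cd74, guides a new pair to the endosome, where H2-DM exchanges the last piece of Cd74 for a peptide and H2-DO, a protein best known from B cells, restrains H2-DM. Dendritic cells, macrophages and B cells express the set constitutively, whereas the epithelium of the small intestine expresses it mainly on exposure to interferon-γ, which induces *Ciita*. Ciita does not touch DNA: it sits on factors bound to the X and Y boxes that class II promoters share.

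Those boxes are visible in the promoters of the members, which is why the stretches are shown. The RefSeq promoter table of build GRCm38.p6 lists 7 of the 10 members, and the 250 bases before each start site were searched on both strands for TGATTGG, the core of the Y box. It was found in 6 members, while 7.23% of all 32851 windows of this length held it. GNAAC, letters of the X box, stood 10 to 30 bases ahead of it in 5 members against 0.502% of all windows. In the stretches below, capitals mark TGATTGG and, where present, GNAAC; a match describes letters only and no binding was measured.
H2-Aa: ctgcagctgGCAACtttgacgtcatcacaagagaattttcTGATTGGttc
H2-Eb1: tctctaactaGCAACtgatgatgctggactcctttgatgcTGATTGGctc
H2-DMb1: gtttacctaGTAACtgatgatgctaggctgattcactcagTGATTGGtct
H2-DMb2: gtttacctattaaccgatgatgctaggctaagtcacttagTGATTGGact
H2-Oa: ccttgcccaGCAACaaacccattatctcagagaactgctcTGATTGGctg
H2-Ob: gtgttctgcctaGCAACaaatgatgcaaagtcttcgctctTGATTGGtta
They lie at chr17:34287864-34287913 (minus strand) for *H2-Aa*, chr17:34305766-34305815 for *H2-Eb1*, chr17:34153088-34153137 for *H2-DMb1*, chr17:34145117-34145166 for *H2-DMb2*, chr17:34092294-34092343 for *H2-Oa* and chr17:34238806-34238855 for *H2-Ob*, the last 5 on the plus strand. The Y box began between 45 and 92 bases ahead of the start site, and the gap between both boxes was 23 to 26 bases. *H2-DMb2* had the Y box without GNAAC, and both windows of *H2-DMa* held neither motif. *H2-Ab1*, *Cd74* and *Ciita* are not in that table.

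Sequences of 2 probes are shown because *H2-Aa*, the member with the steepest fall, was read by a single probe and *H2-Ab1* by 4. The *H2-Aa* probe begins at base 227 of its transcript and lies at chr17:34421285-34421344 of mm9 on the minus strand. The *H2-Ab1* probe shown begins at base 528, upstream of its 3 other probes, at chr17:34404357-34404416 on the plus strand. The brightest probe of *Ciita* lies at chr16:10526458-10526517, and those of the *H2* genes span chr17:34232033-34453134.
H2-Aa: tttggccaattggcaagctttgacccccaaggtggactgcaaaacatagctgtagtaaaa
H2-Ab1: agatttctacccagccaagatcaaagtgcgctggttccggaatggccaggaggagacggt

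The share of spots well above background ran from 56.3% to 62.3% over the arrays, and 0 spots were saturated. Signals are log2 values of the spot intensity after normalization between arrays, and a gene is called changed where limma gave an adjusted p no higher than 0.05 and the fold change was above 1.5. The probe for *Ppargc1a* was at 11.38 ± 0.07 in iPGC1afl/fl mice on HFD and at 11.67 ± 0.26 in arrays labelled iPGC1a-/- (SD, n = 6 each), so it was not lower where the label says deleted. Whether it lies in the deleted exons was not determined, and directions by genotype below are those of the labels.

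HFD was compared with chow in iPGC1afl/fl mice to ask how the diet alone altered the ileum. Every member that could be tested fell: 9 of 9 were called lower on HFD and 0 higher, where 5.2% of all genes tested were called lower, 3.22% higher and 8.43% in either direction. The falls ran from 1.77-fold for *H2-DMa* to 3.29-fold for *H2-Aa*. The median log2 fold change of the 9 was -1.03, against 0.00311 over all genes tested.

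The chains of the surface molecule fell most in *H2-Aa*, the α chain of I-A. Its lowest, median and highest log2 signals were 11.64, 12.75 and 13.19 on chow and 10.20, 10.81 and 12.19 on HFD. Thus 5 of 6 arrays on HFD lay below all on chow, and the exception was replicate 5 of the HFD group. The log2 fold change was -1.72 (standard error 0.30, adjusted p = 0.000292 from limma, exact permutation p = 0.00433).

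*H2-Ab1*, the β chain that pairs with H2-Aa, had signals of 15.11, 15.89 and 16.49 on chow (lowest, median and highest) and 14.29, 14.64 and 15.71 on HFD. Again 5 of 6 HFD arrays lay under the whole chow group. The log2 fold change was -1.09 (standard error 0.22, adjusted p = 0.00132), and all 4 probes of the gene were called, between -1.09 and -1.28, the last of these at the coding probe printed above. *H2-Eb1*, the β chain of I-E, ran from 13.88 through a median of 14.97 to 15.43 on chow and from 13.36 through 13.77 to 14.68 on HFD. Here the groups overlapped more, with 4 of 6 HFD arrays below the chow range, and the log2 fold change was -0.98 (standard error 0.24, adjusted p = 0.00663). The α chain of I-E is the known gap of C57BL6 mice, and the probe for its pseudogene, *H2-Ea-ps*, was well above background on 0 of 18 arrays.

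*Cd74*, the invariant chain, fell 1.99-fold. It measured 14.65, 15.43 and 15.75 on chow at its lowest, median and highest and 13.83, 14.33 and 15.07 on HFD, and 5 of 6 HFD arrays stood below every chow array. The log2 fold change was -0.99 with a standard error of 0.21 (adjusted p = 0.0021).

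The peptide exchanger fell in both of its measurable chains. *H2-DMa*, its α chain, gave 9.34, 10.21 and 10.79 on chow and 8.98, 9.33 and 9.95 on HFD, which is -0.82 as a log2 fold change (standard error 0.21, adjusted p = 0.00633). *H2-DMb1*, a β chain, gave 11.68, 13.04 and 13.42 on chow and 11.31, 11.52 and 12.52 on HFD, a change of -1.15 (standard error 0.26, adjusted p = 0.00299). In both genes 4 of 6 HFD arrays fell below the chow range, which replicate 6 of the chow group extended downwards.

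The chains of the H2-DM inhibitor were near background. *H2-Oa* was well above background on 6 of 6 chow arrays, 3 of 6 iPGC1afl/fl HFD arrays and 5 of 6 iPGC1a-/- HFD arrays, and *H2-Ob* on 6, 5 and 6. The α chain gene *H2-Oa* had log2 signals of 5.47, 6.24 and 7.66 on chow and 4.88, 5.20 and 6.44 on HFD, and the β chain gene *H2-Ob* had 5.57, 6.56 and 7.58 on chow and 4.99, 5.47 and 6.52 on HFD. Both fell, by 1.03 (standard error 0.30, adjusted p = 0.0175) and 0.99 (standard error 0.27, adjusted p = 0.0104) on the log2 scale. Their size depended on how background was treated. With the background-subtracted signal the values were -2.05 (adjusted p = 0.0232) and -1.77 (adjusted p = 0.0136), and with a normexp correction -0.63 and -0.66.

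*Ciita*, the transactivator of the whole set, was spread widely on chow, from 9.81 through a median of 11.22 to 11.93, and narrowly on HFD, from 9.55 through 9.67 to 10.71. Its 2 lowest chow arrays, replicates 3 and 6, at 9.81 and 10.29, lay within the HFD range. The log2 fold change was -1.16 (standard error 0.30, adjusted p = 0.00782), and its other 2 probes that passed the filter were called as well, at -0.84 and -0.88.

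**Figure D1:**
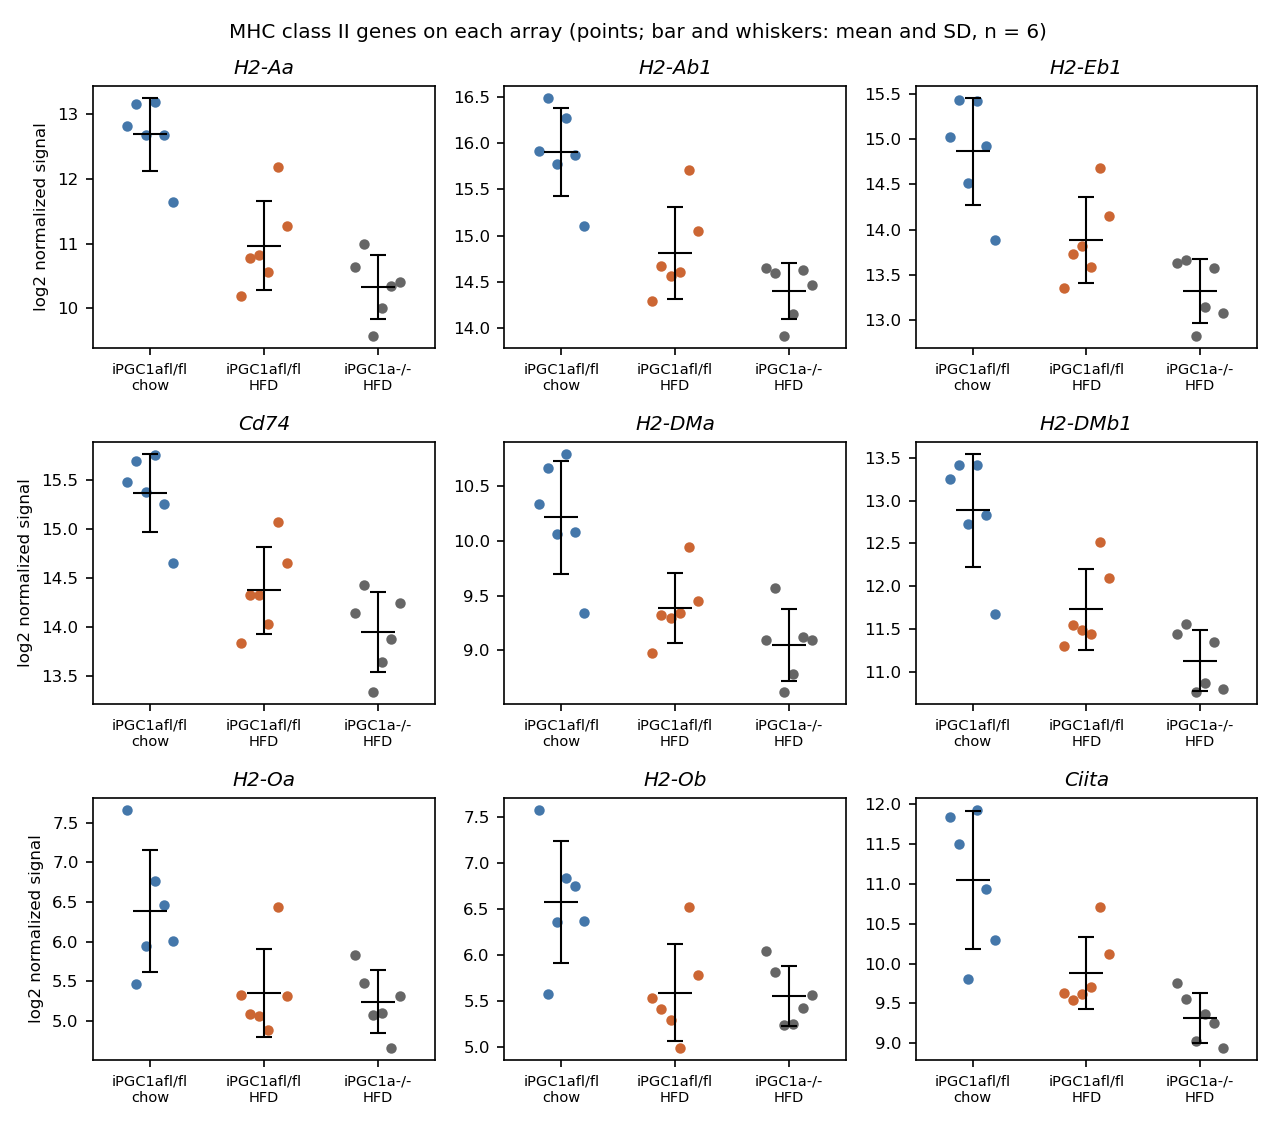
Log2 normalized signal (vertical axes, each on its own range) of 9 MHC class II genes on every array of the 3 groups, with points for single mice and a bar with whiskers for the mean and SD (n = 6). The mean of the chow group is highest in every panel, though its arrays overlap those of iPGC1afl/fl mice on HFD in each. Replicate 6 of the chow group is the lowest chow array in 6 of 9 genes. Replicate 5 of iPGC1afl/fl mice on HFD is the highest of its group in all 9.

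The same mice stood apart in gene after gene. In iPGC1afl/fl mice on HFD, replicate 5 had the highest signal of its group for each of the 9 members, and on chow replicate 6 had the lowest for 6 of them. *Ciita* was lowest in replicate 3, and *H2-Oa* and *H2-Ob* in replicate 2. No single mouse carried the diet difference: with each of the 18 arrays left out in turn, all 9 members were still called lower. All 9 were also lower on HFD on each of the 3 slides, every slide holding 2 arrays of each group. The share of all genes for which this held was not computed.

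The effect of the genotype was asked on HFD only. Here 0 of 9 members were called in limma, as were 0.135% of all genes tested, while 3 had an unadjusted p under 0.05 (9.3% of all genes tested): *H2-Aa* (0.0437), *H2-Eb1* (0.0314) and *H2-DMb1* (0.0318). Adjusted p-values ran from 0.486 to 0.978. With 0 calls the values can only be described, and the 95% intervals of *H2-Aa*, *H2-Eb1* and *H2-DMb1* alone stayed below 0. The exact permutation p of these 3, not adjusted, was 0.0952, 0.0368 and 0.0433. Over the 9 members it ran from 0.0216 for *Ciita* to 0.896 for *H2-Ob*.

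All members except *H2-Oa* and *H2-Ob* had log2 differences between -0.34 and -0.64 in arrays labelled iPGC1a-/- against iPGC1afl/fl on HFD. *H2-Aa* gave 9.57, 10.38 and 11.00 there at its lowest, median and highest, a difference of -0.64 (95% interval -1.26 to -0.02, adjusted p = 0.51). *H2-DMb1* gave 10.76, 11.11 and 11.56, a difference of -0.60 (-1.14 to -0.06, adjusted p = 0.487). In *H2-Eb1*, at 12.83, 13.36 and 13.66, the difference was -0.57 (-1.08 to -0.06, adjusted p = 0.486). The groups overlapped in each of these, with 2 or 3 of the 6 iPGC1a-/- arrays below all of the iPGC1afl/fl arrays on HFD. Their size depended on single arrays. With each array left out in turn, the differences ran from -0.79 to -0.39 for *H2-Aa*, -0.68 to -0.44 for *H2-DMb1* and -0.67 to -0.40 for *H2-Eb1*.

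For *Ciita* the arrays labelled iPGC1a-/- read 8.94, 9.31 and 9.76, of which 4 of 6 lay below the iPGC1afl/fl range on HFD. Its difference was -0.57 (-1.20 to 0.05, adjusted p = 0.558), with an exact permutation p of 0.0216 that was not adjusted. Its other 2 probes were at -0.61 (-1.09 to -0.13) and -0.19 (-0.64 to 0.26), so the size depended on the probe. The remaining differences were -0.43 for *Cd74*, -0.41 for *H2-Ab1* and -0.34 for *H2-DMa*, with intervals that spanned 0. These 7 genes were lower in arrays labelled iPGC1a-/- on all 3 slides, and the share of all genes for which this held was not computed. The 7 moved together over the same arrays, so they do not count as 7 separate results. They stayed lower with each array left out in turn. For *Ciita*, *Cd74*, *H2-Ab1* and *H2-DMa* the difference then shrank to as little as -0.39, -0.28, -0.23 and -0.22. *H2-Oa* and *H2-Ob* were at -0.11 (-0.74 to 0.52) and -0.03 (-0.59 to 0.52) and were lower on 1 and 2 of the 3 slides. Without replicate 5 of iPGC1afl/fl mice on HFD, their differences changed sign, to 0.12 and 0.16.

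**Figure D2:**
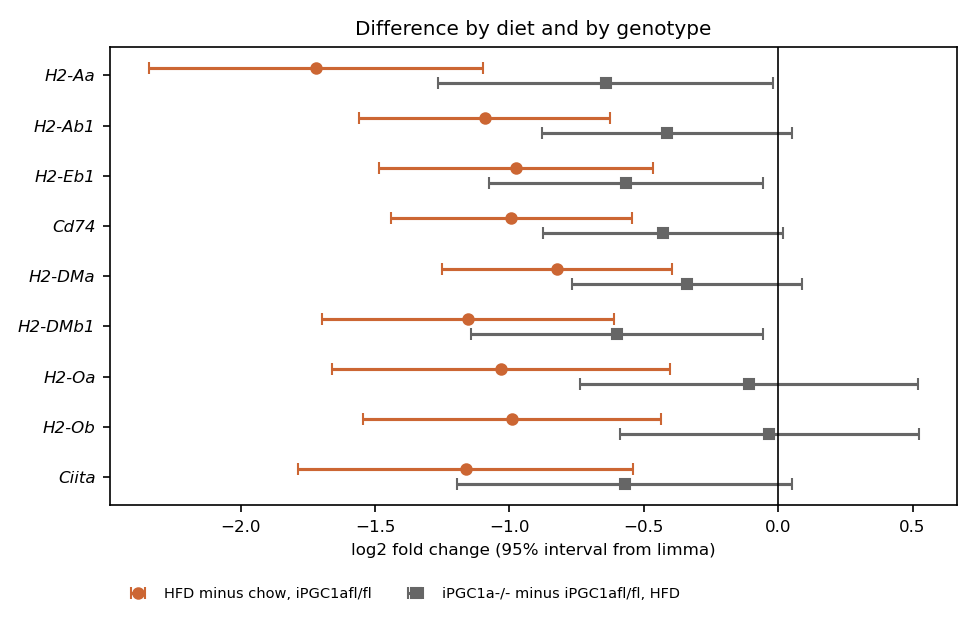
Log2 fold change (horizontal axis) of each gene by diet in iPGC1afl/fl mice (circles) and by genotype label on HFD (squares), with 95% intervals from limma. The diet intervals all lie below 0, and the genotype intervals of 6 of the 9 genes span it.

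iPGC1a-/- mice on HFD were set against iPGC1afl/fl mice on chow as well, a contrast in which diet and genotype differ together and cannot be told apart and which shares arrays with both others. All 9 members were called lower, against 6.86% of all genes tested. The log2 fold change was -2.36 for *H2-Aa*, -1.76 for *H2-DMb1*, -1.73 for *Ciita*, -1.54 for *H2-Eb1*, -1.51 for *H2-Ab1*, -1.42 for *Cd74*, -1.16 for *H2-DMa*, -1.14 for *H2-Oa* and -1.02 for *H2-Ob*. In 6 of them the groups did not overlap at all (8.64% of all genes tested were lower without overlap), the exceptions being *H2-DMa*, *H2-Oa* and *H2-Ob*.

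The genes around the members were then examined by function. Of 26 measured regulators of class II transcription, 7 fell on HFD and 1 rose. The factors that hold Ciita at the promoter were not among those that fell: *Rfxank*, a subunit of the RFX complex, rose by 0.75 (adjusted p = 1.07e-05), while *Rfx5*, *Rfxap*, *Nfya*, *Nfyb*, *Nfyc* and *Creb1* were not called. Among those that fell were *Nlrc5*, the class I counterpart of *Ciita* (-2.50), *Ifng*, which encodes interferon-γ (-1.25), *Socs1*, an inhibitor of its signal (-1.23), *Prdm1*, a repressor of *Ciita* in plasma cells (-0.94), *Irf8* (-0.88) and *Irf4* (-0.81).

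Processing genes and the partners of the molecule were examined next. Of 17 measured genes of antigen processing, trafficking and turnover, 2 fell, the endosomal proteases *Lgmn* (-0.78, adjusted p = 0.0054) and *Ctsh* (-0.67, adjusted p = 0.00025), and the median of the list was -0.16. Among 9 measured partners of class II molecules and co-stimulatory genes, *Cd274*, the ligand of the checkpoint receptor PD-1, fell by 1.12, *Lag3*, a class II receptor of T cells, by 0.79, and *Cd44* and *Mif* by 0.67 and 0.65. *Cd4* rose by 0.62 at its brightest probe (adjusted p = 0.0487) and changed by 0.06 at its other probe (adjusted p = 0.599). *Cd80* was at 0.05 (adjusted p = 0.711), and the probes of *Cd86* and *Cd40* did not pass the filter.

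Among 18 genes of class I presentation, 3 fell and 0 rose, with a list median of -0.26. They were *Tap1*, a subunit of the peptide transporter (-1.23), and the immunoproteasome subunits *Psmb8* (-1.11) and *Psmb9* (-1.08), genes that lie among the class II genes on chromosome 17. The class I heavy chain gene *H2-K1* was at 0.08 (adjusted p = 0.551) and *B2m* at -0.36 (adjusted p = 0.0253, below the fold required). Of 26 genes induced by interferon-γ, a list that shares these 3 and 4 of the regulators, 22 fell and 0 rose (median -1.15), led by *Ubd* at -4.43. Of 15 genes induced by type I interferon, 11 fell and 0 rose (median -0.94), with *Ifit1* at -1.51 and *Ifi44* at -1.32. For genotype, 0 genes of any of these lists were called in limma, and the list medians lay between -0.06 and 0.12 on the log2 scale beside -0.43 for the members.

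Cell type markers on the same arrays bear on what the preparation held. Of 14 general epithelial markers, keratins among them, 0 were called for diet in limma, 4 had an unadjusted p under 0.05, and their median was -0.06. The log2 of their summed signal ranged from 19.6 to 19.7 on chow and from 19.4 to 19.6 on HFD in iPGC1afl/fl mice. Of 14 absorptive enterocyte markers 3 rose and 2 fell.

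Lymphocyte markers fell beside the members. Of 18 genes of T cells and intraepithelial lymphocytes, 15 fell and 1 rose, with *Cd5* at -2.27 and the granzyme gene *Gzma* at -2.17, and their log2 summed signal was 15.0 to 16.5 on chow and 14.5 to 15.0 on HFD. B cell markers fell in 9 of 13, with *Cd79b* at -2.60 and *Pou2af1* at -1.62, and a log2 summed signal of 12.7 to 13.5 on chow and 12.5 to 12.9 on HFD. Plasma cell markers fell in 3 of 5, led by *Jchain* at -3.23, while their log2 summed signal overlapped, at 14.4 to 15.0 on chow (median 14.5) and 14.1 to 15.0 on HFD (median 14.7). Bright probes weigh most in such sums. The brightest probes of *Eaf2* and *Fcrl5* averaged 13.70 and 13.50 over all arrays and were not called. Their other probes, at 4.90 and 5.16, changed by -0.30 and -0.43. In the B cell sum the brightest probe of *Cd37*, at 12.26, changed by -0.14 and its other probes by -1.10 and -1.05. Of 12 markers shared by leukocytes 7 fell, with *Cd52* at -1.94. *Ptprc*, the defining gene of that list, was at 0.03 by its brightest probe and was called lower by the 4 others, from -0.75 to -1.60. The part of fewer lymphocytes, or of less RNA in each, in the falls of the members was not tested.

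Myeloid cells, which express class II molecules strongly, could be followed by few markers. Of 13 listed macrophage genes 10 were measured and 1 fell, *Mpeg1* (-0.73), and *Adgre1* and *Fcgr1*, defining genes of the type, were well above background on 0 of 18 arrays. Of 13 listed dendritic cell genes 8 were measured and 2 fell, *Ccr7* (-1.37) and *Itgax* (-0.82), with *Xcr1*, *Clec9a* and *Clec10a* well above background on 0 of 18. *Itgam* and *Siglech*, counted as measured in these lists, averaged 15.02 and 16.35 at their brightest probes and 5.37 and 5.15 at their other probes. Markers of M cells and follicle epithelium fell in 5 of 6 and goblet cell markers in 5 of 8. In the genotype contrast limma called 0 of the 245 genes of all pathway and marker lists, of which 16 (6.53%) had an unadjusted p under 0.05. The medians of the 15 marker lists there ran from -0.14 for enteroendocrine and tuft cells to 0.24 for plasma cells, with 0.20 for T cell, 0.04 for B cell and 0.03 for epithelial markers, beside -0.43 for the members, and this difference was not tested.

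**Figure D3:**
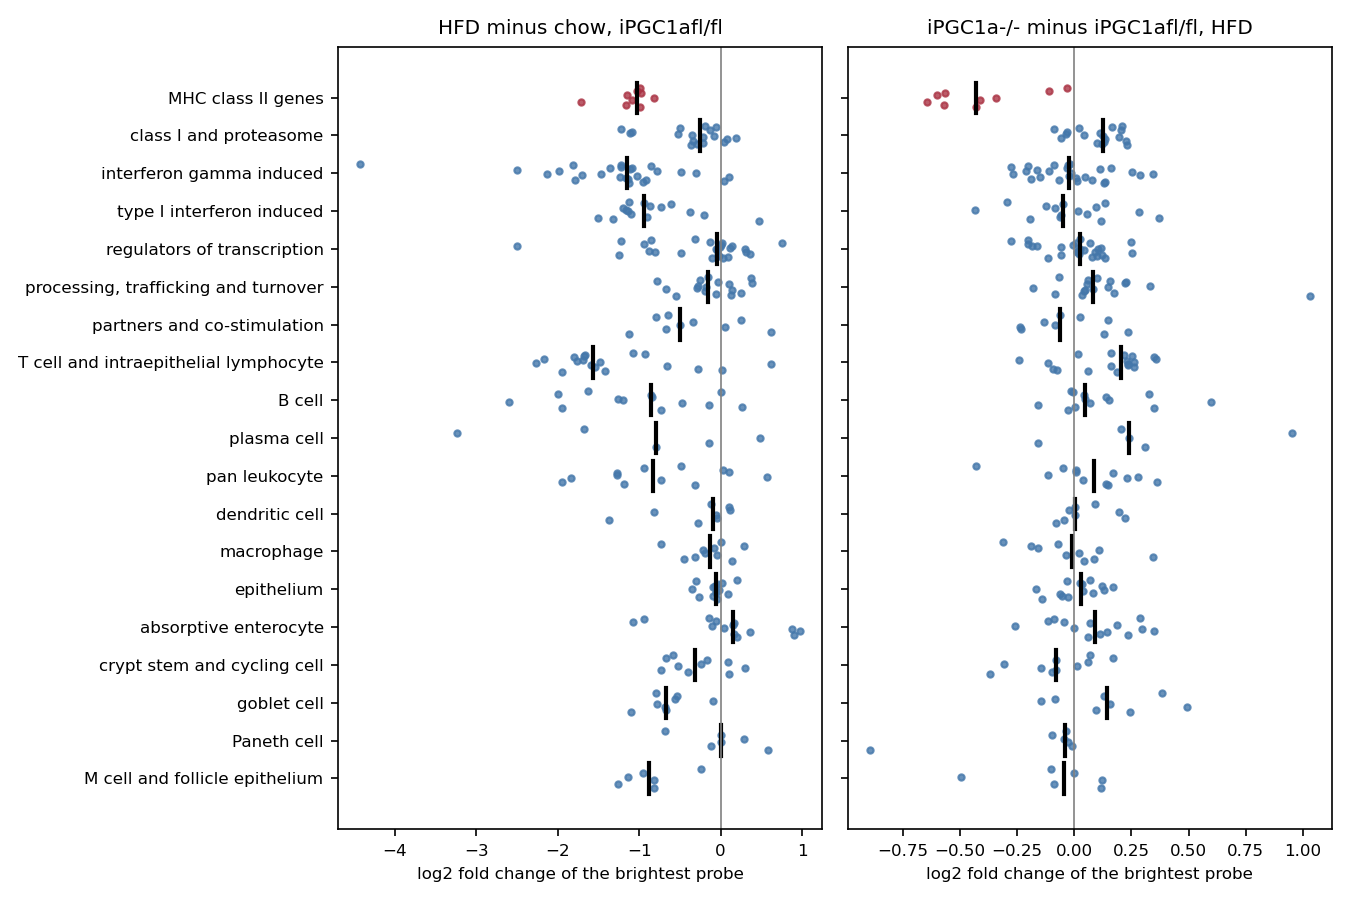
Log2 fold change (horizontal axes, on different ranges) of every measured gene of a list, by diet in iPGC1afl/fl mice on the left and by genotype label on HFD on the right, with a black bar at each list's median. On the left the MHC class II genes (red, median -1.03) fell with the interferon and lymphocyte lists while the epithelial markers centred on -0.06; on the right their median was -0.43 and no gene of any list shown was called.

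Whether a member and a cell type moved together from mouse to mouse was asked at the same diet and genotype. The signals of each gene and the mean log2 signal of each list were centred on their group's mean, so that only differences between mice of one group remained, and correlated over the 18 arrays. P-values are from exact shuffles of arrays within groups and were adjusted over the 135 pairs of 9 genes and 15 marker lists, of which 7 pairs had an adjusted p of 0.05 or lower.

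Among themselves the members formed a tight set and a pair. *H2-Aa*, *H2-Ab1*, *H2-Eb1*, *Cd74*, *H2-DMa* and *H2-DMb1* correlated with each other at 0.86 to 0.97, and *Ciita* with these 6 at 0.61 to 0.81. *H2-Oa* and *H2-Ob* correlated at 0.95, but with the other 7 only at 0.32 to 0.62. The 7 are also the members that were well above background on all 18 arrays, and all these values are descriptions over the same 18 arrays.

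*H2-Oa* and *H2-Ob* followed the B cell markers. Pearson's r was 0.96 for *H2-Oa* (rho 0.92, adjusted p = 4.34e-06) and 0.97 for *H2-Ob* (rho 0.89, adjusted p = 1.81e-05), and within each of the 3 groups r was between 0.89 and 0.99. Without the 2 arrays farthest from the list's median r was 0.95 for both. They also rose and fell with the plasma cell list (0.83 and 0.82, adjusted p = 0.0171 for each) and with the dendritic cell list (0.82 and 0.78, adjusted p = 0.0261 and 0.0432), which holds *Ccr7*, a gene that B and T cells use as well. Without the 2 arrays farthest from the median of the dendritic cell list neither gene passed with it (r = 0.64 and 0.63, adjusted p = 0.128 and 0.14), and in arrays labelled iPGC1a-/- alone r was 0.26 and 0.18. Both genes and most of these markers were dim. The mean log2 signal of the B cell list was 6.84 to 8.32 over the chow arrays and 6.06 to 7.29 over those of iPGC1afl/fl mice on HFD. The list of stroma and endothelium, at 6.82 to 7.34 and 6.58 to 7.80, correlated with the pair at -0.23 and -0.30. With the background-subtracted signal r to the B cell list was 0.89 and 0.97.

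The other 7 members correlated with the B cell list at 0.30 to 0.59 (adjusted p 0.121 to 0.527). On chow their r to it lay between -0.12 and 0.44. Their strongest partners among the marker lists were plasma cells (0.60 to 0.79), T cells and intraepithelial lymphocytes (0.54 to 0.76) and the shared leukocyte markers (0.54 to 0.74). Of these pairs *Ciita* with plasma cells alone passed (r = 0.79, rho 0.74, adjusted p = 0.0171). The plasma cell list rests on 5 measured genes, among them *Eaf2* and *Fcrl5*, whose brightest probes are far above their other probes. In arrays labelled iPGC1a-/- alone the T cell list gave r between -0.14 and 0.16 over the 9 members, with a median of -0.06. Its median was 0.85 on chow and 0.71 in iPGC1afl/fl mice on HFD. Each median rests on the few arrays of a single group, and the difference was not tested. Medians of other lists also varied between iPGC1afl/fl and iPGC1a-/- arrays on HFD. They were -0.73 and 0.49 for enteroendocrine and tuft cells and 0.68 and -0.60 for innate lymphoid cells. For plasma cells they were 0.93 and 0.76. Leaving out the 2 arrays farthest from each list's median raised the plasma cell pairs that passed from 3 to 7 of 9. Those 7 were the 7 bright members, while *H2-Oa* and *H2-Ob* no longer passed there. By rank, 8 of the 9 members passed with the plasma cell list (adjusted p 0.0118 to 0.0267), and *Cd74* did not (rho 0.66, adjusted p = 0.0516). The shared leukocyte list passed by rank with *H2-Aa*, *Cd74*, *H2-DMa* and *H2-DMb1* (adjusted p 0.0265 to 0.0467). The difference between the members in how they followed B cells was not itself tested.

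Of the pairs of a member and an epithelial list, none passed by Pearson's r and 1 passed by rank, *H2-Oa* with the list of M cells and follicle epithelium (r = 0.69, adjusted p = 0.0537; rho 0.78, adjusted p = 0.0265). *H2-Ob* had r = 0.62 with that list (adjusted p = 0.0709), and the other 7 members 0.18 to 0.51. Without the 2 arrays farthest from the list's median r was 0.56 for *H2-Oa* (rho 0.52, adjusted p = 0.273). For the general epithelial list r was -0.37 to 0.21 over the 9 genes, with a median of 0.02 and adjusted p of 0.369 to 0.961. That list varied little within groups (SD 0.06 to 0.08 of its mean log2 signal), which limits what r to it can show. For absorptive enterocytes the values were -0.36 to 0.17. Paneth cell markers ran the other way in the 7 brighter members, at -0.58 to -0.28, with adjusted p of 0.0907 or more. Goblet cell markers gave -0.40 to 0.00339 and enteroendocrine and tuft cell markers -0.43 to -0.20. Macrophage markers gave r between 0.01 and 0.43 (adjusted p 0.202 to 0.974).

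**Figure D4:**
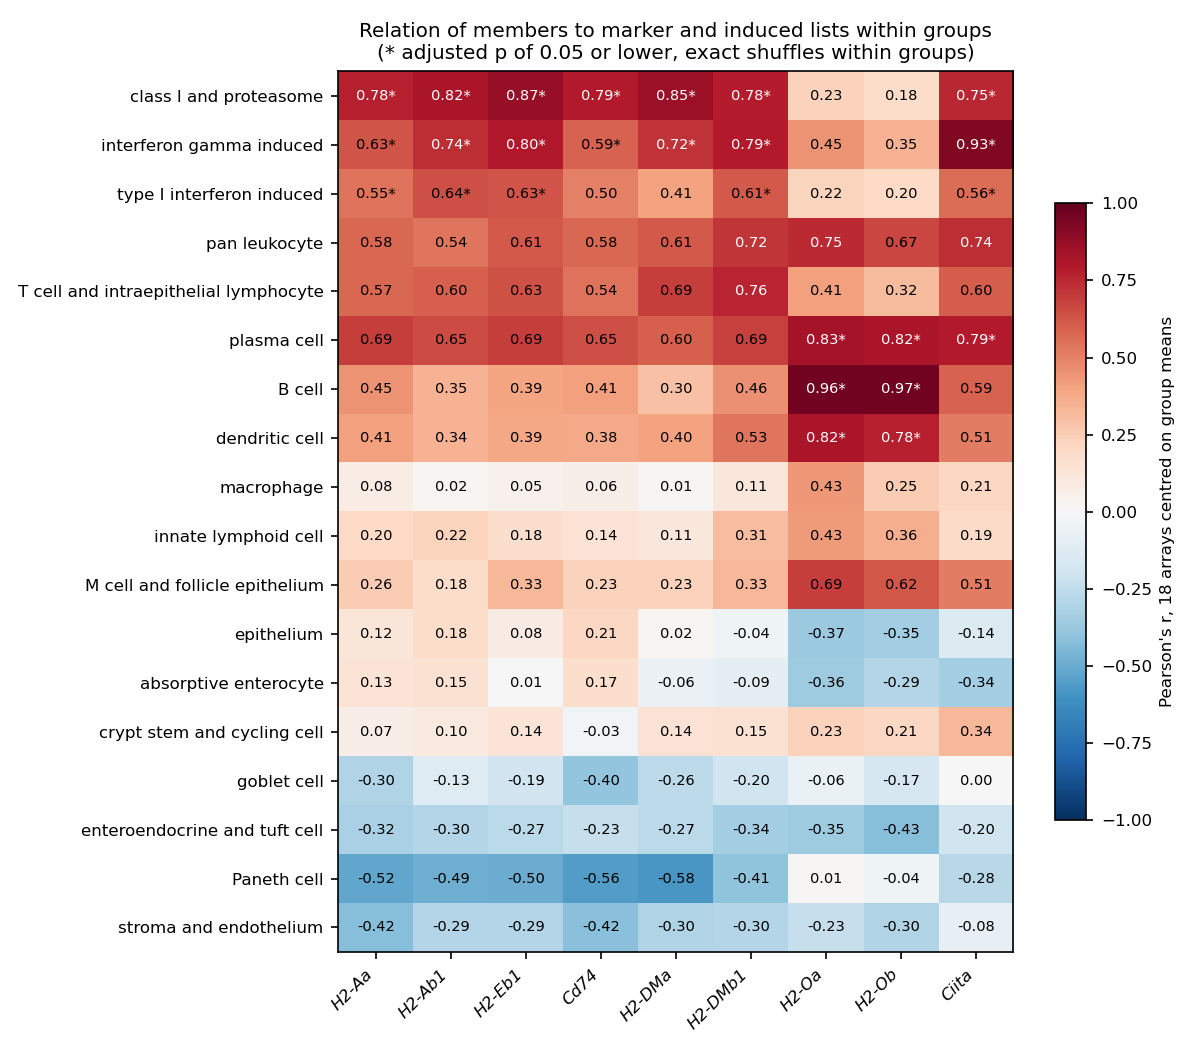
Pearson's r between each gene (columns) and the mean log2 signal of each list (rows) over 18 arrays centred on their group means, from -1 (blue) to 1 (red), with stars where the adjusted p was 0.05 or lower. *H2-Oa* and *H2-Ob* reach 0.96 and 0.97 with the B cell list, the other 7 genes reach 0.75 to 0.87 with the class I list, and the general epithelial list stays between -0.37 and 0.21.

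Genes induced by interferon and genes of class I presentation were compared in the same way, in 27 further pairs chosen after the marker lists had been seen, of which 19 passed. The class I list followed the 7 brighter members at 0.75 to 0.87 (adjusted p 0.000127 to 0.0115) and the interferon-γ list at 0.59 to 0.93 (adjusted p 0.000303 to 0.0139). *Ciita* had the highest r with the interferon-γ list, 0.93 (rho 0.88, adjusted p = 0.000303), and within each group 0.75 to 0.95. *H2-Eb1* had the highest r with the class I list (0.87, rho 0.82, adjusted p = 0.000127). For *H2-Oa* and *H2-Ob* the class I list gave 0.23 and 0.18 and the interferon-γ list 0.45 and 0.35, with adjusted p of 0.192 or more. Type I interferon genes passed with 5 of the 9 members, at r up to 0.64. In arrays labelled iPGC1a-/- alone the median r over the 9 members was 0.60 for the class I list, against 0.86 on chow and 0.85 in iPGC1afl/fl mice on HFD, each over 6 arrays and without a test of the difference.

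**Figure D5:**
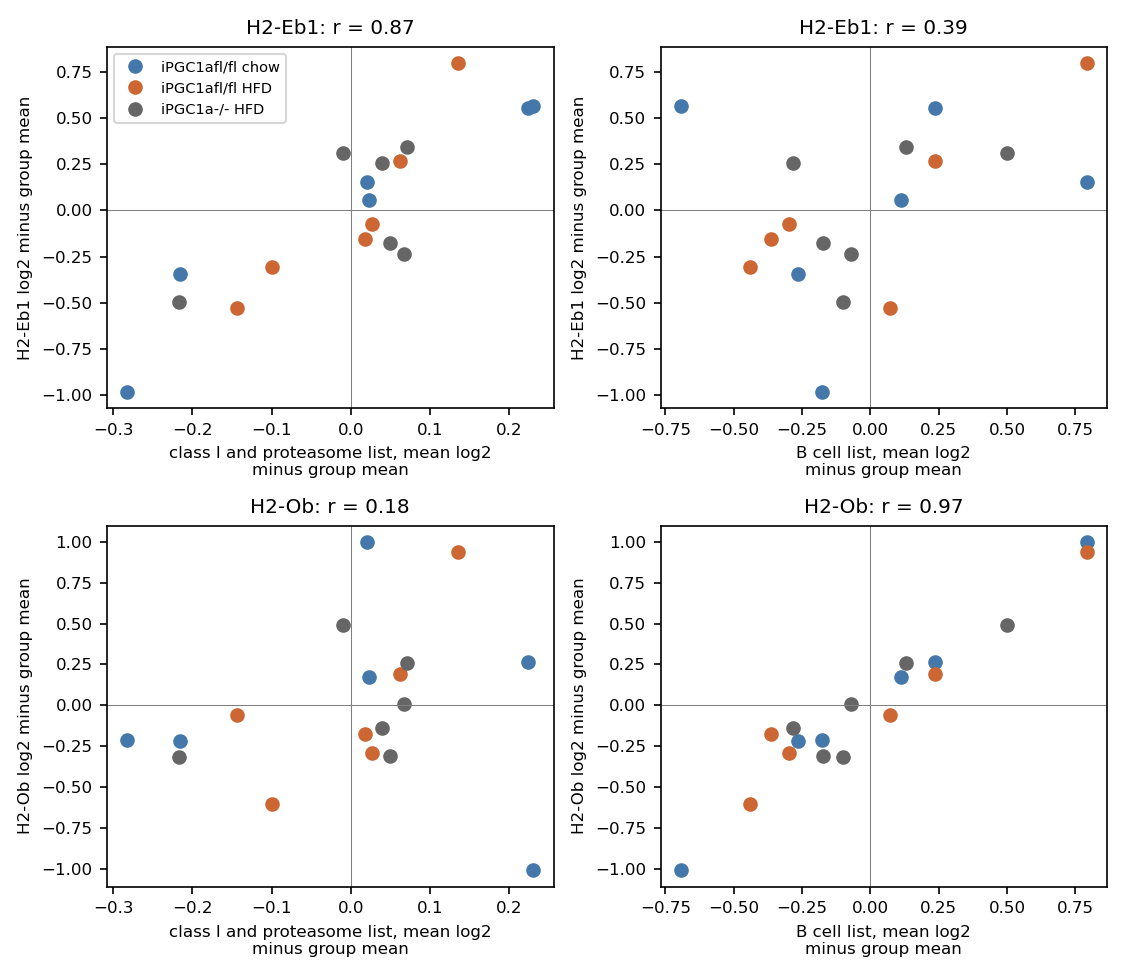
Signals of *H2-Eb1* (top) and *H2-Ob* (bottom) against the class I list (left) and the B cell list (right), as log2 values minus the mean of the group, with 1 point per mouse coloured by group. *H2-Eb1* rises with the class I list (r = 0.87) and less with the B cell list (0.39), and *H2-Ob* the reverse (0.18 and 0.97). Centred on slides as well, *H2-Ob* had r = 0.63 with the class I list and *H2-Eb1* had r = 0.67 with the B cell list.

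Measures of the whole array were set beside these. Centred in the same way, r between the 9 members and the share of spots well above background was -0.36 to -0.04, and with the median local background it was -0.08 to 0.27. Centring on the 2 arrays of each group on each slide kept r to the B cell list at 0.97 for *H2-Oa* and 0.98 for *H2-Ob*. It gave 0.59 to 0.86 for the other 7, nearer to the pair than the 0.30 to 0.59 found with groups alone. With the class I list the pair then had r of 0.62 and 0.63, against 0.23 and 0.18 with groups alone. With the interferon-γ list its r was 0.79 and 0.78, against 0.45 and 0.35. Over the 9 members, r to the list of M cells and follicle epithelium was then 0.37 to 0.72, against 0.18 to 0.69 with groups alone. For the general epithelial list it was -0.51 to 0.10 and for absorptive enterocytes -0.58 to 0.20. These slide-centred values have no test.

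The genes outside the set most like it were sought over all genes tested, by r with the mean of the 7 brighter members centred on group means over 18 arrays. The first 3 were *Tap1* (0.87), *Psmb8* (0.87) and *Psmb9* (0.86), followed by *Rgs14* (0.84) and *Slfn2* (0.83), and *Tap2* (0.81) and *Wdfy1* (0.81) were also among the first 10. The other 3 carry only a transcript identifier in the files. All 10 had lower values on HFD than on chow in iPGC1afl/fl mice, and *Tap1*, *Psmb8* and *Psmb9* differed by genotype by -0.09, 0.11 and -0.03 (adjusted p 0.886 to 0.974).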

How the data were processed

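The authors hybridised Cy3-labelled cRNA of each mouse to an Agilent SurePrint G3 Mouse GE v2 array and deposited spot intensity values as read by Feature Extraction 10.10.1.1, not yet normalized, and a table of log2 values that they had filtered, corrected for washing bath and labelling serial and normalized by qsmooth. The labels do not name those batches, so that correction was not repeated. Here probes had to be well above background on 5 or more of the 6 arrays of any group. Their log2 median signals were brought to a common scale by a rewritten qsmooth (window 0.05) and tested in R 4.3.3 with limma 3.58.1 in one model of 3 groups, adjusted by Benjamini-Hochberg over 32726 probes. Single values also had two-sided exact permutation tests, whose smallest p for 6 against 6 is 0.00216. P-values measure the spread between mice. On simulated data with 32638 probes, 94% of changes of 1 on the log2 scale, planted in probes drawn at random, were recovered by diet and 95.5% by genotype. The number of arrays limits the precision, with a median standard error of 0.105. The standard errors of the 9 members were larger, from 0.21 for *H2-DMa* to 0.30 for *H2-Oa*, so the simulated recovery does not apply to them. Lists and members were chosen with earlier results of these data known. Named were all members, the called genes of a pathway list (8 largest), the 4 largest called or 2 brightest of a marker list and the 10 genes of most similar pattern; other named genes were chosen after their values were seen. Some genes that this rule names are not reported here. Figures used matplotlib 3.10.9 in Python 3.11.15. Probe positions are those of mm9, and promoters those of RefSeq on GRCm38.p6. Alternatives were another signal, background correction, normalization and filter, the authors' log2 values, slide and replicate blocks, thresholds, averaged probes and each array left out.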

Additional observations from a re-analysis of the deposited data

Results flagged for a closer look

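In 27 sets of 6 arrays (9 genes in 3 groups), 2 had an extreme array farther from its neighbour than 0.625 of the group's range, which about 1 set in 20 gives by chance. *H2-Aa* was lowest in replicate 6 of iPGC1afl/fl mice on chow, at 11.64, while the next array of that group was at 12.67, a gap of 0.669 of the range. *H2-Oa* was highest in replicate 5 of iPGC1afl/fl mice on HFD, at 6.44, with the next array at 5.33, a gap of 0.712 of the range.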

How the results depend on the processing

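The 9 members called lower by diet came to 7 under 2 of 13 alternatives, the filter that keeps only probes well above background on every array (which leaves out *H2-Oa* and *H2-Ob*) and an adjusted p of 0.01, and to 9 under the others and with each array left out; 0 were called by genotype under all 13, and 9 in the joint contrast under each of the 4 tried there. Same-numbered replicates correlated at -0.22 to 0.35 in their deviations (median 0.10, 9 of 18 pairs over 0.1). Pairs with other numbers correlated at -0.36 to 0.44 (median -0.03, 23 of 90 over 0.1). The numbers were not taken to pair samples, though same-numbered arrays were somewhat more alike. With the replicate block the counts were 9, 0 and 9. The genotype difference of *H2-Ob* changed sign to 0.13 with the background-subtracted signal and to 0.00149 with normexp, and ranged from -0.14 to 0.16 with arrays left out; that of *H2-Oa* ranged from -0.23 to 0.12, and the cause was not tested. Pairs of members and marker lists that passed went from 7 to 12 without the 2 arrays farthest from each list's median. Of the 245 measured genes of the other lists, 104 were called by diet, 76 to 132 under the alternatives and 94 to 107 with arrays left out. Those counts, the pairs with interferon and class I lists (19, and 18 to 21 under 3 alternatives) and the correlations centred on slides were chosen after seeing the data. Near background, as for *H2-Oa*, *H2-Ob* and *H2-DMb2*, signal over background limits what could be seen.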
